A study of Caenorhabditis elegans with 6 samples.

Results

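Nematodes (Caenorhabditis elegans, young adult hermaphrodites) exposed to 400 Gy of X-rays were compared with unirradiated young adults (0 Gy), using 4 of the 6 RNA sequencing libraries of the study, 2 at each dose. A gray (Gy) is the unit of absorbed dose. The members of the comparison were the libraries labelled 400 Gy, replicates 1 and 2, and those labelled 0 Gy, replicates 1 and 2. Both groups were age-synchronised adults past the last larval stage, X-rays came from a linear accelerator, and total RNA of whole worms was sequenced. The sources used here do not give the strain, any mutation it carried or the time from irradiation to harvest. Nothing in the labels states that libraries of 1 dose stem from different cultures, and the p-values then reflect only how these libraries vary, possibly for technical reasons. The 200 Gy libraries served for the direct comparison of 400 Gy with 200 Gy, for the check of the counts with all 6 libraries, and for the values of 4 genes at 200 Gy over 0 Gy.

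Ionising radiation breaks DNA, and in dividing cells such breaks activate the checkpoint kinases atm-1 and atl-1 and, in the germ line, the p53 homologue cep-1, which can switch on the cell death activator egl-1. In an adult hermaphrodite of this species the somatic cells have stopped dividing, so dividing cells are found in the germ line and in the embryos held in the uterus. The rest of the RNA of a whole worm comes from the intestine, the epidermis that makes the cuticle, the muscles, the neurons and the pharynx, the muscular feeding organ. In such bulk RNA, fewer cells of a type and less RNA per cell cannot be told apart.

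The 400 Gy libraries held 12315765 and 10729139 gene counts, and the 0 Gy libraries 10270678 and 9930689. Ribosomal RNA genes took 0.696% and 9.26% of the counts at 400 Gy, against 1.09% and 4.32% at 0 Gy, so replicate 2 at 400 Gy stood apart in that share. The labelled sex and stage were checked with the 6 vitellogenin (yolk protein) genes, which adult hermaphrodites express in the intestine. They took 5.72% and 3.29% of the counts at 400 Gy, against 2.43% and 4.76% at 0 Gy. The table lists 45292 genes, and 13906 of them passed the filter on low counts in these 4 libraries.

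Fold changes followed gene length, and the trend was removed before genes were judged. Across the 13906 tested genes, the log2 fold change of 400 Gy over 0 Gy had a Spearman correlation of 0.42 with coding length before correction and of 0.031 after it, a description across genes of the same 4 libraries. In the longest of 10 classes of genes by length, of 2679 to 55975 bases, the median log2 fold change was 0.96 before correction and -0.0075 after it. In the shortest class, of 20 to 387 bases, it was -0.51 before correction and -0.086 after it. Without the correction 546 genes (39.3%) of the longest class were called higher at 400 Gy, against 81 with it. The length trend and the dose cannot be told apart, because both 400 Gy libraries leaned to long genes and both 0 Gy libraries to short ones. A change of long genes as a class would therefore be removed with it. Values below are length-corrected CPM (counts scaled to the size of the library, after removal of each library's trend with length), given for replicates 1 and 2 in that order. Log2 fold changes are length-corrected and given ± standard error (SE), which was derived from the fold change and the test statistic. Each gene was also ranked by its uncorrected fold change among the 500 tested genes nearest to it in length. The very longest genes were all ranked among the 500 longest others, most of them shorter, so their percentiles are not closely matched for length.

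**Figure D1:**
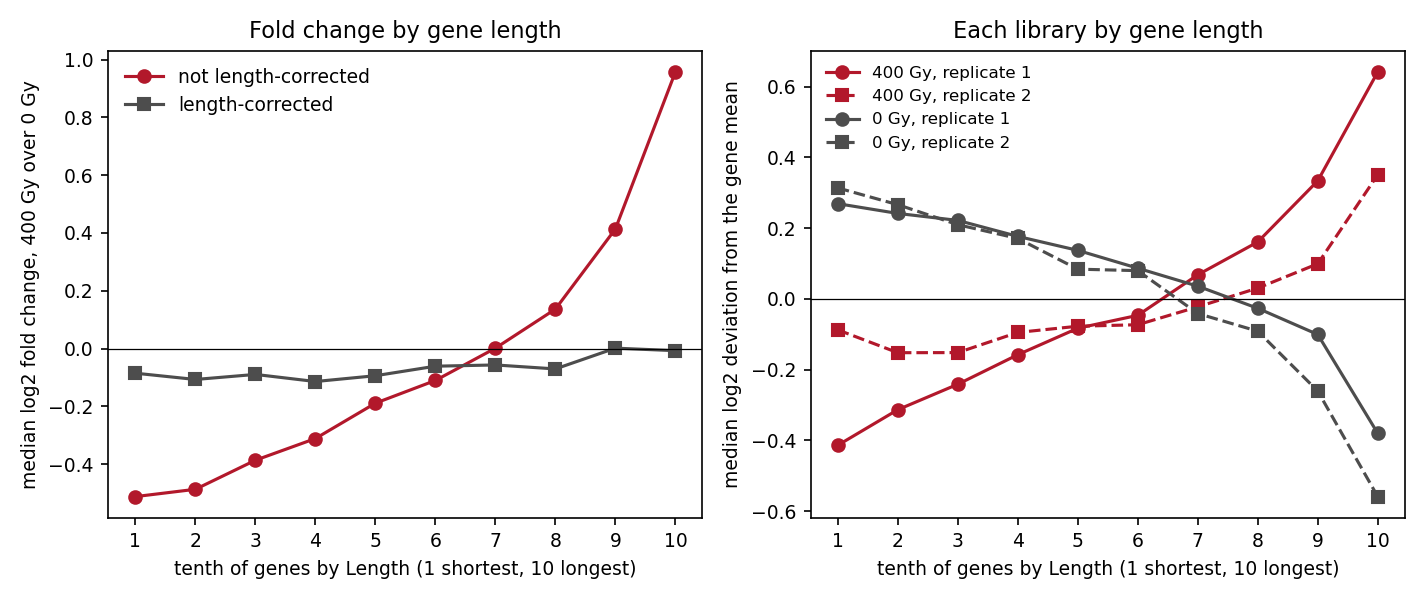
Left, median log2 fold change of 400 Gy over 0 Gy (y axis) in 10 equal classes of the tested genes by coding length (x axis, 1 shortest to 10 longest), without and with the length correction. Right, median log2 deviation of each library from the gene means in the same classes. Before correction the median climbed to 0.96 in the longest class, and both 400 Gy libraries lay above both 0 Gy libraries there.

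With genes judged against others of similar length, 1165 genes (8.38% of those tested) rose at 400 Gy and 798 (5.74%) fell, by the quasi-likelihood test of edgeR at a Benjamini-Hochberg adjusted p under 0.05. Without the length correction 10.3% rose and 5.13% fell. The median log2 fold change over all tested genes was -0.068. For 7028 genes (50.5%) both 400 Gy values lay on one side of both 0 Gy values. Some limits apply to all calls below. The 4 libraries left 2 residual degrees of freedom, and edgeR gave every gene the same prior spread. A gene's own difference between replicates therefore hardly entered its p or its SE. With all 6 libraries in 1 length-corrected fit, 178 genes rose and 87 fell, and all 265 were among the 1963 called from 4 libraries. Leaving out replicate 1 at 0 Gy left 489 higher and 365 lower, and leaving out replicate 2 at 0 Gy left 339 higher and 154 lower. Without replicate 1 at 400 Gy 480 genes were called lower.

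The 15 largest rises among genes with a mean of at least 5 CPM had log2 fold changes of 3.15 to 4.76. They ranked at percentiles 98.6 to 100 among genes of their length, which follows largely from their choice by fold change. All 15 also passed without the length correction, with all 6 libraries (adjusted p of 0.0305 to 0.0416) and without each library in turn. alg-3, an Argonaute protein that acts with small RNAs in sperm formation, lies on chromosome IV from 11704365 to 11708169 (WBcel235, as are all positions here). It had 12.5 and 27.8 CPM at 400 Gy, against 1.94 and 1.88 CPM at 0 Gy, a log2 fold change of 3.39 ± 0.50 (adjusted p = 5.99e-09). Its close relative alg-4, on chromosome III and outside the 15, had 14.7 and 32.2 CPM at 400 Gy, against 3.02 and 2.26 CPM at 0 Gy, a log2 fold change of 3.14 ± 0.48 (adjusted p = 1.86e-08). In both Argonaute genes the higher value at 400 Gy was that of replicate 2.

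clec-4, a C-type lectin, had 110 and 77.0 CPM at 400 Gy, against 10.6 and 7.47 CPM at 0 Gy, a log2 fold change of 3.38 ± 0.43 (adjusted p = 9.49e-12). fipr-2, of a family of small secreted peptides, had 27.8 and 26.4 CPM at 400 Gy, against 2.94 and 2.86 CPM at 0 Gy. Its replicates agreed closely at each dose, and its log2 fold change was 3.22 ± 0.47 (adjusted p = 5.99e-09). pqn-31, named for a protein rich in glutamine and asparagine, had 14.3 and 13.5 CPM at 400 Gy, against 1.00 and 2.1 CPM at 0 Gy, a log2 fold change of 3.15 ± 0.51 (adjusted p = 1.42e-07). The remaining rises were mul-1 (4.55), Y113G7C.1 (3.16), ZK1005.2 (4.76) and the genes B0205.10, Y38E10A.17, C04G2.8, F56A11.6, T27A3.4, T08B6.4, F58G1.3 and E03H12.5, with log2 fold changes of 3.15 to 3.43. In 11 of the 15 (73.3%, against 42.5% of all tested genes), replicate 2 exceeded replicate 1 at 400 Gy. ZK1005.2 is listed with 31 bases inside pme-5 on the other strand. The library kit does not mark strand, so reads of overlapping genes on opposite strands cannot be told apart. The same holds for F56A11.6, fipr-2 and E03H12.5.

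The 15 largest falls, chosen in the same way, had log2 fold changes of -5.72 to -3.04. Their percentiles of 0 to 0.8 again follow largely from that choice. All 15 also passed without the length correction and in the fit to 6 libraries (adjusted p of 0.0244 to 0.0419). ins-19, an insulin-like peptide gene on chromosome II, and ilys-5, an invertebrate-type lysozyme gene, were among them, at -5.72 and -3.41. spp-9, a saposin-like protein of the family that includes pore-forming antimicrobial peptides, lies on chromosome X from 11487796 to 11488154. It had 0.406 and 0.586 CPM at 400 Gy, against 15.6 and 9.55 CPM at 0 Gy, a log2 fold change of -4.60 ± 0.60 (adjusted p = 2.55e-11). F10D2.8 had 0 and 0.394 CPM at 400 Gy, against 9.08 and 13.8 CPM at 0 Gy, and with one library at 0 its log2 fold change of -5.63 depends on the prior count.

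Metabolic, surface and cell adhesion genes made up other falls among the 15. lips-6, a lipase-related gene, had 0.641 and 1.02 CPM at 400 Gy, against 5.85 and 29.2 CPM at 0 Gy, the widest ratio between unirradiated replicates among the 15 falls. cyp-35B1, a cytochrome P450, had 0.919 and 2.77 CPM at 400 Gy, against 23.2 and 28.5 CPM at 0 Gy, a log2 fold change of -3.80 ± 0.50 (adjusted p = 3.11e-11). bus-1, an acyltransferase-like gene known from resistance to a bacterium that sticks to the cuticle, had 0.261 and 1.84 CPM at 400 Gy, against 11.5 and 21 CPM at 0 Gy. fmi-1, the flamingo-type cadherin that guides axons, had 5.23 and 8.16 CPM at 400 Gy, against 39.2 and 77.0 CPM at 0 Gy, a log2 fold change of -3.12 ± 0.44 (adjusted p = 7.9e-10). fmi-1 is listed with 7791 bases, and its uncorrected log2 fold change was -1.40. This was the lowest among the 500 longest other genes, with which it was ranked. The others were T01D3.3, dct-8, oac-56, F42A10.7, F56D6.8 and the collagens col-41 and col-54. Genes on the other strand overlap bus-1, cyp-35B1, fmi-1, T01D3.3, col-41 and col-54, and their reads cannot be told apart.

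**Figure D2:**
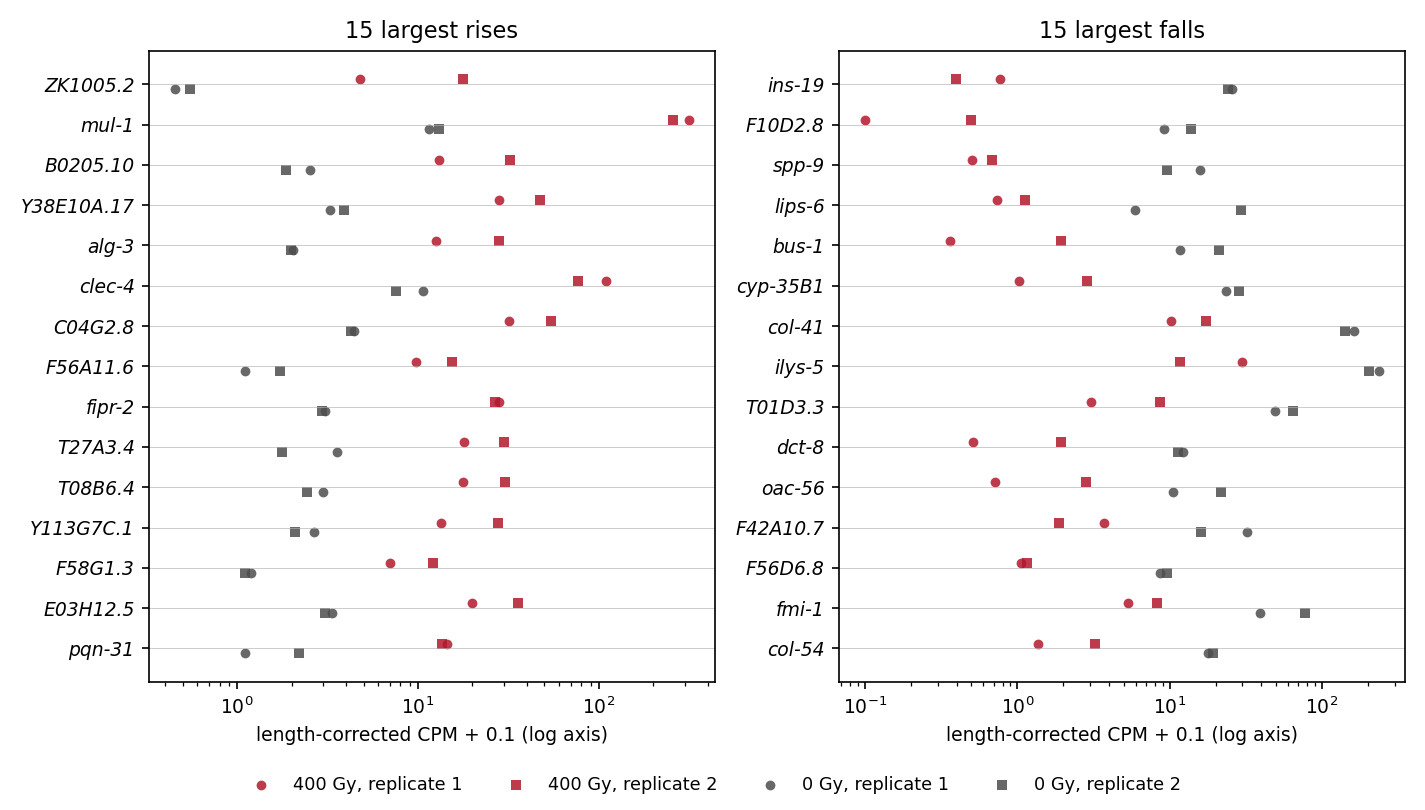
Length-corrected CPM plus 0.1 (x axis, logarithmic) of the 15 largest rises and the 15 largest falls at 400 Gy, 1 point per library. The genes were chosen so that both 400 Gy points lie on one side of both 0 Gy points, which held for 50.5% of all tested genes.

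Sperm genes rose as a group, relative to genes of their length. Major sperm proteins (MSP) are the small cytoskeletal proteins that move the crawling sperm of nematodes and signal to oocytes. Of 25 tested msp genes 24 rose and none fell, with a median log2 fold change of 2.37, against 8.38% of all tested genes that rose and a median of -0.068 over all. Their log2 fold changes ran from 1.45 to 2.81 and their percentiles among genes of similar length from 87.8 to 98.4. Over all tested genes 50.5% had non-overlapping libraries and 42.5% a higher value in replicate 2 than in replicate 1 at 400 Gy. All 25 msp genes had both. msp-59, the largest rise of them, had 8.93 and 11.7 CPM at 400 Gy, against 1.63 and 1.32 CPM at 0 Gy, a log2 fold change of 2.81 ± 0.52 (adjusted p = 4.23e-06). The msp genes are near-identical copies, so reads may have been shared among them and single members are uncertain.

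Of 30 other tested sperm genes 22 rose (73.3%, against 8.38% of all tested genes) and none fell, with a median of 2.14. gsp-3, a protein phosphatase of sperm, had 16.7 and 25.9 CPM at 400 Gy, against 3.06 and 2.68 CPM at 0 Gy, a log2 fold change of 2.89 ± 0.47 (adjusted p = 2.2e-07). fer-1, a ferlin needed for membrane fusion in sperm activation, had 5.01 and 14.8 CPM at 400 Gy, against 1.90 and 1.29 CPM at 0 Gy, a log2 fold change of 2.63 ± 0.53 (adjusted p = 2.64e-05). spe-11, a sperm-supplied factor needed by the embryo, had 9.93 and 21.5 CPM at 400 Gy, against 1.74 and 4.52 CPM at 0 Gy. comp-1, spe-8, spe-26 and spe-41 were also among the 22.

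These counts depended on the unirradiated libraries. Without replicate 2 at 0 Gy, 5 msp genes and 7 of the other sperm genes passed, and without replicate 1 at 0 Gy 20 and 11 did. In the fit to 6 libraries 6 msp genes and 4 of the others passed, and without the length correction 21 and 18 did. The list of sperm markers (msp genes, gsp-3, gsp-4 and spe-9) summed to 278.5 and 412.6 CPM at 400 Gy, against 80 and 52.4 CPM at 0 Gy, with 26 of 28 tested markers higher and none at 0 in a library. Of 4 listed male markers 1 had enough counts to be tested, with 1.01 and 3.11 CPM at 400 Gy, against 1.92 and 1.28 CPM at 0 Gy.

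In the lists of RNA interference and fatty acid metabolism most members did not pass. Of 48 tested genes of the RNA interference list 4 rose and none fell, a share of 8.33% beside 8.38% of all tested genes. Besides alg-3 and alg-4 they were the worm-specific Argonautes wago-2, with 99.8 and 67.7 CPM at 400 Gy against 34.6 and 16.5 CPM at 0 Gy, and ppw-2, with 197 and 140 CPM at 400 Gy against 78.7 and 36.4 CPM at 0 Gy. Without the length correction 11 of the 48 rose, in the fit to 6 libraries 2 did, and without replicate 2 at 0 Gy 2 did. Of 81 tested genes of fatty acid metabolism 11 rose (13.6%, against 8.38% of all tested genes) and 5 fell (6.17%, against 5.74%). acs-18, an acyl-CoA synthetase, had 5.85 and 17 CPM at 400 Gy, against 1.42 and 1.52 CPM at 0 Gy, a log2 fold change of 2.95 ± 0.52 (adjusted p = 1.38e-06). acs-10, of the same family, had 9.09 and 21.2 CPM at 400 Gy, against 2.85 and 2.26 CPM at 0 Gy, a log2 fold change of 2.56 ± 0.48 (adjusted p = 7.09e-06). elo-7 and elo-8, fatty acid elongases, rose by log2 fold changes of 3.70 and 2.46. fat-7, a stearoyl-CoA desaturase of the intestine, went the other way, with 0.216 and 0.370 CPM at 400 Gy against 3.32 and 5.01 CPM at 0 Gy, a log2 fold change of -3.76 (adjusted p = 3.53e-06). Of the fatty acid list 2 rose and 1 fell in the fit to 6 libraries, 4 rose and 3 fell without replicate 1 at 0 Gy, 4 and 1 without replicate 2 at 0 Gy, 12 and 2 without replicate 1 at 400 Gy, and 7 and 4 without replicate 2 at 400 Gy.

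Oocyte and germline RNA regulators differed between replicates as well as between doses. Over all 13906 tested genes 6772 were higher in replicate 1 at 0 Gy, and 5914 were higher in replicate 2 at 400 Gy. In this list replicate 1 exceeded replicate 2 at each dose in 52 of 54 tested genes. Of the 54, 10 rose (18.5%, against 8.38% of all tested genes) and none fell, with a median of 0.54. gld-1, a translational repressor of the germ line, had 911 and 426 CPM at 400 Gy, against 361 and 125 CPM at 0 Gy, a log2 fold change of 1.46 ± 0.47 (adjusted p = 0.017). sygl-1, a stem cell gene of the germ line, had 172 and 87.2 CPM at 400 Gy, against 60.4 and 22 CPM at 0 Gy. None of the 54 passed in the fit to 6 libraries. With the replicate number added as a block 27 rose, though the labels do not say that the 2 numbers pair libraries. Over all tested genes that block raised the higher calls from 1165 to 1821. The median of the 54 was 0.041 without replicate 1 at 400 Gy and 0.89 without replicate 2 there. It was 1.31 without replicate 1 at 0 Gy and 0.0033 without replicate 2 there. The 4 oocyte markers summed to 2534 and 1232 CPM at 400 Gy, against 1760 and 606.8 CPM at 0 Gy.

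Among early embryo genes falls outnumbered rises. Of 42 tested genes of the list 12 fell (28.6%, against 5.74% of all tested genes) and 1 rose (2.38%, against 8.38%), with a median of -0.89. sdz-24, a target of the embryonic factor SKN-1, had 13.5 and 20.8 CPM at 400 Gy, against 94.8 and 108.03 CPM at 0 Gy, a log2 fold change of -2.56 ± 0.42 (adjusted p = 1.79e-07). sdz-24 also fell in the fit to 6 libraries and with each library left out. pes-10, transcribed in early embryos, had 2.76 and 0.850 CPM at 400 Gy, against 6.94 and 9.81 CPM at 0 Gy, a log2 fold change of -2.22 ± 0.51 (adjusted p = 0.000361).

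The list holds 8 tested T-box transcription factors, picked out after their values were seen, of which 4 fell, 1 rose and 3 did not pass. tbx-37, tbx-38, tbx-39 and tbx-11 fell, with log2 fold changes of -2.43, -2.53, -2.15 and -1.93, and tbx-34 had 3.53 and 10.9 CPM at 400 Gy, against 1.48 and 1.13 CPM at 0 Gy. Of all 42 genes of the early embryo list, 1 fell without replicate 2 at 0 Gy, 5 without replicate 1 at 0 Gy, 6 without replicate 2 at 400 Gy, 1 in the fit to 6 libraries and 8 with no length correction. The 4 tested markers of embryos in the uterus summed to 28.9 and 29.8 CPM at 400 Gy, against 67.9 and 103.1 CPM at 0 Gy.

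Genes of DNA damage and repair showed few changes in the length-corrected edgeR test, which called 14.1% of all tested genes. None of 29 genes of homologous recombination, 10 of end joining, 25 of excision repair, 35 of DNA replication or 38 of meiosis passed in the length-corrected edgeR test or in DESeq2. At an unadjusted p under 0.05 in edgeR, 1 gene each of the recombination, replication and meiosis lists was higher at 400 Gy and none of the 5 lists had a lower one. Without the length correction 4 recombination genes rose and 1 in each of the other lists. With the replicate number as a block 2 recombination, 1 excision repair, 2 replication and 4 meiosis genes rose. In that fit 2 excision repair, 1 replication and 1 meiosis gene fell, and 3289 of all tested genes were called. rad-51, the strand exchange protein, had 96 and 61.5 CPM at 400 Gy, against 84.0 and 57.5 CPM at 0 Gy, a log2 fold change of 0.15 ± 0.39 (adjusted p = 0.882). cep-1 had 62.0 and 42.4 CPM at 400 Gy, against 84.7 and 92.1 CPM at 0 Gy, a log2 fold change of -0.76 ± 0.39 (adjusted p = 0.226). The groups of rad-51 overlapped, and those of cep-1 did not.

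atm-1 depended on the correction, with a log2 fold change of 0.28 ± 0.40 (adjusted p = 0.762) after it and of 2.00 before it. atl-1, of similar length, had -0.62 ± 0.41 (adjusted p = 0.397) after correction and 1.14 before it. Of 20 checkpoint genes 1 rose (5%) and 1 fell (5%), and of 25 genes of p53 and cell death 2 rose (8%) and 1 fell (4%). The shares over all tested genes were 8.38% and 5.74%.

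egl-1 had 4.84 and 2.45 CPM at 400 Gy, against 1.27 and 0.357 CPM at 0 Gy, a log2 fold change of 2.15 ± 0.59 (adjusted p = 0.00316). egl-1 did not pass without the length correction (adjusted p = 0.0991), with 6 libraries, in the DESeq2 Wald test, or without replicate 1 at 400 Gy or replicate 2 at 0 Gy. ced-3, the caspase of the cell death pathway, had 192 and 106 CPM at 400 Gy, against 90.9 and 33.3 CPM at 0 Gy, and lost its call in all of these fits and without replicate 1 at 0 Gy. nuc-1, the nuclease that digests DNA of dead cells, had 52.6 and 48.0 CPM at 400 Gy, against 122 and 118 CPM at 0 Gy, a log2 fold change of -1.25 ± 0.40 (adjusted p = 0.0174), a call lost whichever library was left out and with 6 libraries. ced-13, the other BH3-only gene downstream of cep-1, had 5 and 2 counts at 400 Gy, against 1 and 1 at 0 Gy, too few to be tested.

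**Figure D3:**
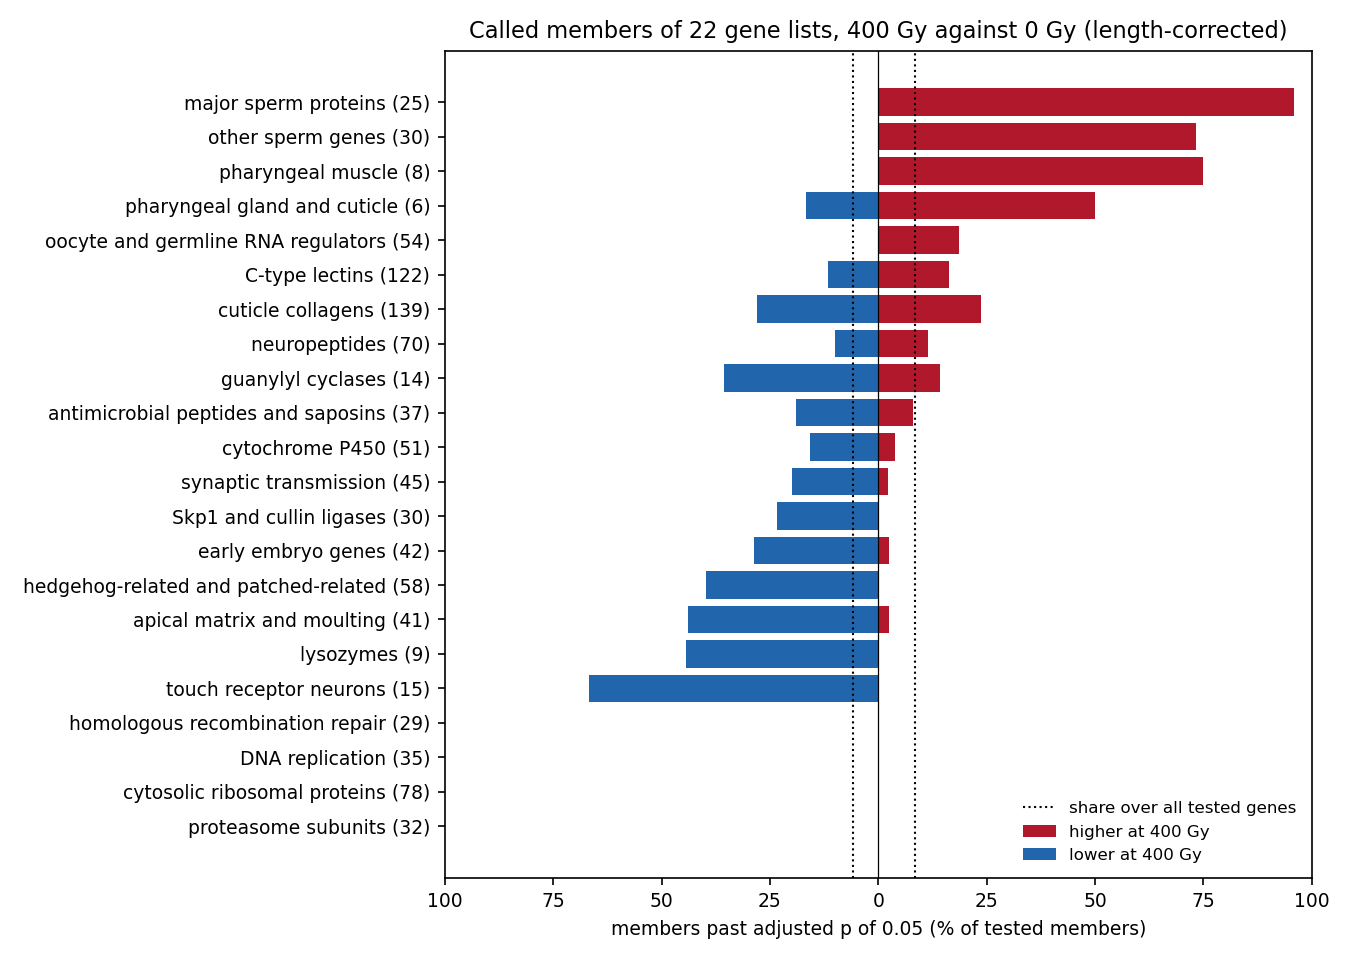
Percent of tested members called higher (right) and lower (left) at 400 Gy in 22 lists, with the number tested in parentheses and dotted lines at the shares over all tested genes, 8.38% and 5.74%. Sperm and pharyngeal muscle lists extend to the right, touch receptor, lysozyme, apical matrix and hedgehog-related lists to the left, and 4 lists of repair, replication, ribosomal and proteasome genes have no called member.

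Touch receptor neuron genes fell together. These few neurons sense gentle touch through a mechanically gated channel of the degenerin family, and their fate is set by the transcription factors mec-3 and unc-86. Of 15 tested genes 10 fell and none rose, with a median of -1.92, against 5.74% of all tested genes that fell. In 14 of the 15 both 400 Gy values lay below both 0 Gy values, as in 4032 of all 13906 tested genes. mec-17, the tubulin acetyltransferase of these cells, lies on chromosome IV and had 13.6 and 15.7 CPM at 400 Gy, against 56.1 and 79.1 CPM at 0 Gy, a log2 fold change of -2.21 ± 0.41 (adjusted p = 5.07e-06). mec-7, their beta-tubulin, had 28.7 and 31.9 CPM at 400 Gy, against 144 and 112.3 CPM at 0 Gy, a log2 fold change of -2.08 ± 0.41 (adjusted p = 2.11e-05). mec-17 and mec-7 also passed with 6 libraries, without the length correction and without each library in turn.

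The channel subunits and the regulator moved the same way. mec-4, a channel subunit, had 1.52 and 2.33 CPM at 400 Gy, against 7.50 and 7.91 CPM at 0 Gy, a log2 fold change of -2.0 (adjusted p = 0.00146). mec-10, another subunit, had 1.40 and 2.78 CPM at 400 Gy, against 4.27 and 11.5 CPM at 0 Gy. mec-3 had 0.887 and 0.924 CPM at 400 Gy, against 3.10 and 4.36 CPM at 0 Gy, a log2 fold change of -2.03 (adjusted p = 0.00627). The alpha-tubulin mec-12, used in more neurons, had a smaller fall of 1.32 on the log2 scale, with 41.2 CPM in both 400 Gy libraries against 111 and 95.1 CPM at 0 Gy. The matrix protein mec-1 rested on the correction, with log2 fold changes of -1.70 after it and -0.19 before it. Without the correction 7 genes of the list fell. Without replicate 2 at 0 Gy 3 genes of the list passed, and in the fit to 6 libraries 2 did.

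Soluble guanylyl cyclases, which sense oxygen in a few body cavity neurons, were lower as well. All 6 tested had both 400 Gy values below both 0 Gy values, 5 of them fell, and their percentiles among genes of similar length were 1 to 5.4. Over all tested genes 4032 of 13906 lay below in this way and 5.74% fell. The 6 soluble cyclases were taken out of the list of 14 tested guanylyl cyclases with results of these data known. Of the 14, 5 fell (35.7%) and 2 rose (14.3%, against 8.38% of all tested genes). gcy-36 had 0.767 and 0.612 CPM at 400 Gy, against 4.23 and 6.48 CPM at 0 Gy, a log2 fold change of -2.94 (adjusted p = 3.11e-05). gcy-37 had 1.66 and 1.57 CPM at 400 Gy, against 5.78 and 7.45 CPM at 0 Gy, a log2 fold change of -2.03 (adjusted p = 0.0018). The receptor-type cyclases gcy-21 and gcy-15 were called higher from values near 0 at 0 Gy. gcy-21 had 2.1 and 1.79 CPM at 400 Gy, against 0.118 and 0 CPM at 0 Gy. Without the length correction 3 of the 14 fell and 3 rose, none fell in the fit to 6 libraries, and without replicate 2 at 0 Gy 1 fell and none rose.

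In the list of synaptic transmission falls outnumbered rises with the length correction. Among ligand-gated channels the share of falls was near that of all tested genes. The summed level of the pan-neuronal markers overlapped between doses. The 5 pan-neuronal markers summed to 224.7 and 199.9 CPM at 400 Gy, against 211.2 and 237 CPM at 0 Gy, with 1 marker, unc-13, lower. Of 45 tested genes of synaptic transmission 9 fell (20%, against 5.74% of all tested genes) and 1 rose (2.22%, against 8.38%) with the correction. Without it none of the 45 fell and 3 rose. The medians were -0.46 with the correction and 0.18 without it. None of the 45 passed in the fit to 6 libraries. Of 65 tested ligand-gated channel genes 5 fell (7.69%, near the 5.74% of all tested genes) and 1 rose (1.54%) with the correction, with a median of -0.52. Without it 2 fell and 1 rose among the 65, with a median of -0.25. Of these, none passed with 6 libraries, 1 fell without replicate 1 of either dose, none without replicate 2 at 0 Gy and 8 without replicate 2 at 400 Gy. The call of unc-13 rested on the length correction. unc-13, which primes synaptic vesicles, had log2 fold changes of -1.37 after correction and 0.18 before it. eat-4, the vesicular glutamate transporter, had 3.35 and 4.43 CPM at 400 Gy, against 8.29 and 16.06 CPM at 0 Gy, a log2 fold change of -1.64 ± 0.47 (adjusted p = 0.00508, lost with 6 libraries). Of the 45, 3 fell without replicate 1 at 400 Gy, 5 without replicate 1 at 0 Gy and none without replicate 2 at 0 Gy.

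Of 70 tested neuropeptide genes 8 rose (11.4%, against 8.38% of all tested genes) and 7 fell (10%, against 5.74%). nlp-12, a cholecystokinin-like peptide, had 4.31 and 9.11 CPM at 400 Gy, against 32 and 31.8 CPM at 0 Gy, a log2 fold change of -2.23 ± 0.43 (adjusted p = 1.29e-05). flp-1, an FMRFamide-like peptide, had 15.2 and 18 CPM at 400 Gy, against 4.63 and 4.71 CPM at 0 Gy, a log2 fold change of 1.83 ± 0.46 (adjusted p = 0.000998). Of the 2, nlp-12 passed in the fit to 6 libraries and flp-1 did not. Of the 70, none rose and 1 fell in the fit to 6 libraries, 1 rose and 4 fell without replicate 1 at 0 Gy, none rose and 4 fell without replicate 2 at 0 Gy, 8 rose and 4 fell without replicate 1 at 400 Gy, and 4 rose and 9 fell without replicate 2 at 400 Gy. Of 13 insulin-like peptides 2 rose (15.4%) and ins-19 fell (7.69%), against 8.38% and 5.74% of all tested genes. daf-28 had 3.29 and 1.56 CPM at 400 Gy, against 0 and 0.142 CPM at 0 Gy, and ins-37 had 2.32 and 6.66 CPM at 400 Gy, against 0.826 and 0.298 CPM at 0 Gy.

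Pharyngeal muscle genes were higher at 400 Gy. Of 8 tested pharyngeal muscle genes 6 rose (75%, against 8.38% of all tested genes) and none fell, with a median of 1.71. tnc-2, the pharyngeal troponin C, had 10.9 CPM in both 400 Gy libraries, against 2.06 and 2.23 CPM at 0 Gy, a log2 fold change of 2.34 ± 0.49 (adjusted p = 7.85e-05). tnt-4, a troponin T, had 13 and 12.1 CPM at 400 Gy, against 2.00 and 3.19 CPM at 0 Gy, a log2 fold change of 2.26 ± 0.48 (adjusted p = 9.08e-05). tnc-2 and tnt-4 are listed with 483 and 1137 bases, so these rises are not confined to the long myosin genes of the pharynx, and both passed without the correction. myo-5, a myosin heavy chain, had 26 and 25.8 CPM at 400 Gy, against 8.10 and 8.80 CPM at 0 Gy.

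Replicates of these genes lay close to each other at both doses. In the fit to 6 libraries 2 of the 8, myo-1 and myo-2, passed, without replicate 1 at 0 Gy 2 did and without replicate 2 at 0 Gy 3 did. Of 6 tested genes of the pharyngeal gland and cuticle 3 rose (50%) and 1 fell (16.7%), against 8.38% and 5.74% of all tested genes. Their median percentile among genes of similar length was 58.2. The phat genes are expressed in the gland. phat-4 had 8.04 and 8.75 CPM at 400 Gy, against 0.255 and 0.394 CPM at 0 Gy, a log2 fold change of 4.64 (adjusted p = 2.58e-10). phat-3 and phat-6 rose by log2 fold changes of 3.00 and 2.58, and abu-12, a protein of the pharyngeal cuticle, fell by 1.77 on the log2 scale.

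Fewer body wall muscle genes were called with the length correction than without it. Without it 5 thick filament genes rose and none fell, and 4 thin filament genes rose and 1 fell. The medians of the thick and thin filament lists were 0.45 and 0.64 with the correction and 0.59 and 0.66 without it. Their median percentiles among genes of similar length were 77.3 and 80.1. With the correction 1 of 12 tested genes of the thick filament rose (unc-15, paramyosin), 8.33% against 8.38% of all tested genes, and none fell. Of 18 of the thin filament 2 rose (11.1%), tni-3 and unc-27, and none fell. The call of unc-27 did not pass without the correction. None of the 3 passed in the fit to 6 libraries or without either 0 Gy replicate, and unc-15 and unc-27 did not pass without either 400 Gy replicate. Of 6 giant muscle proteins 2 rose with the correction (median 0.64), 4 with the trend taken from length classes (median 2.63) and 6 with no correction (median 3.88), and none passed without either 0 Gy replicate. unc-22, the giant kinase twitchin, is listed with 22026 bases and had log2 fold changes of 1.96 ± 0.47 (adjusted p = 0.000569) after correction and 4.65 before it. Its uncorrected value stood at percentile 99.6 among the 500 longest other genes, most of them shorter, whose median was 1.43. The 6 giant proteins, with a median length of 18510 bases, had a median percentile of 97.9, again not closely matched for length. The 4 body wall muscle markers summed to 3625 and 3929 CPM at 400 Gy, against 1342 and 2050 CPM at 0 Gy. Basement membrane and epidermal attachment genes showed the length dependence plainly, since 13 of 24 and 10 of 15 rose without the correction, against 1 and 0 with it, where 3 and 2 fell. The falls were 12.5% and 13.3% of the 2 lists, against 5.74% of all tested genes, and none of these fell in the fit to 6 libraries. The 2 epidermal falls, lrp-1 and unc-44, stood at percentiles 26.2 and 50 among the same longest genes, most of them shorter. With the length trend taken from classes no gene of that list fell.

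**Figure D4:**
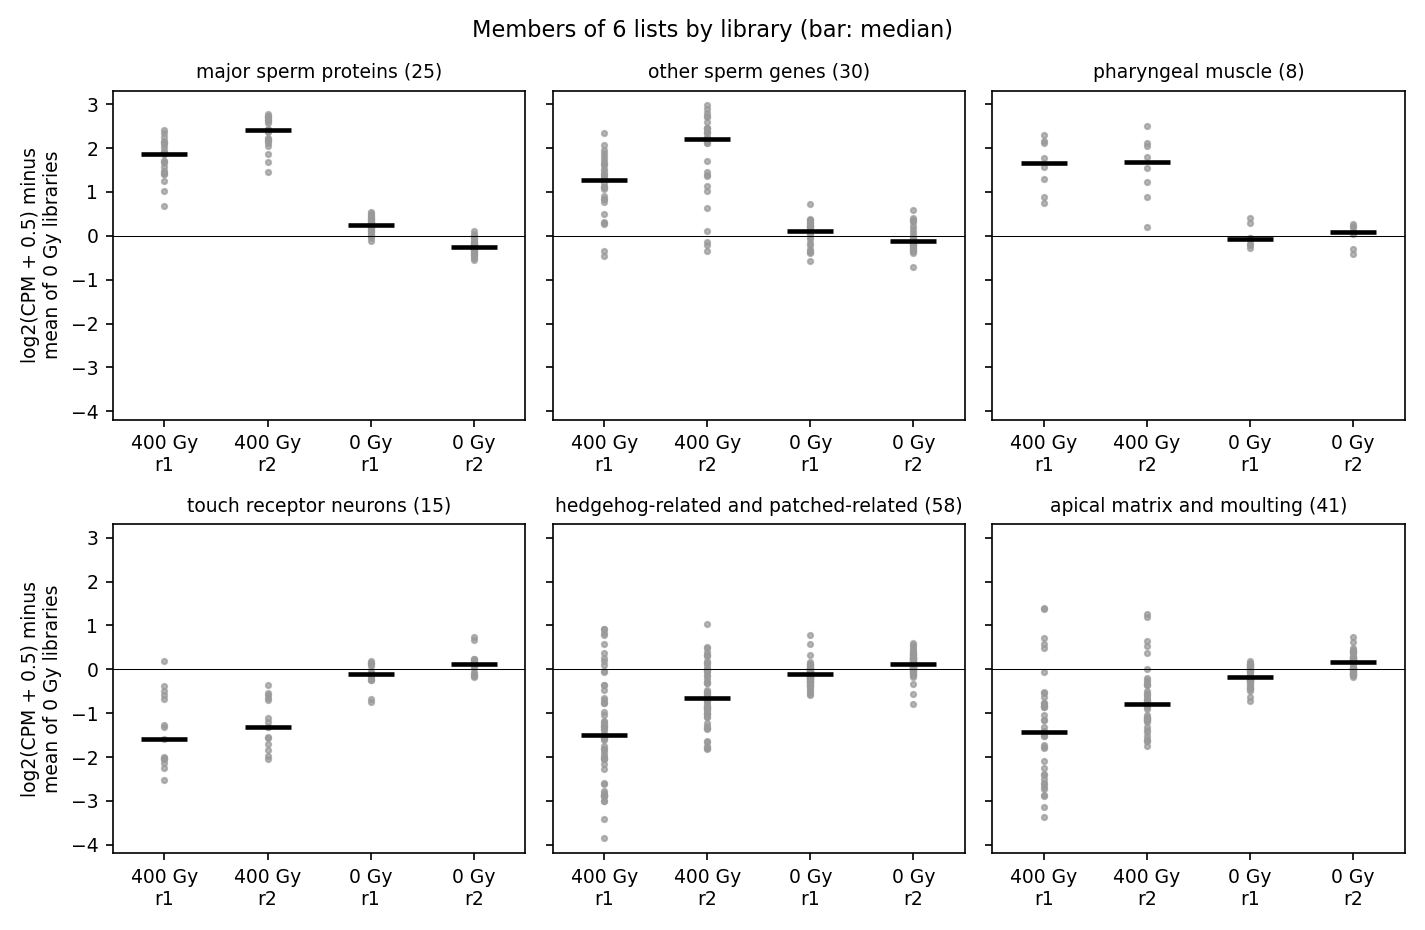
Log2 of length-corrected CPM plus 0.5, less the mean of the 0 Gy libraries (y axis), for each tested member of 6 lists in each library, with the median as a bar (r1 and r2, replicates 1 and 2). Sperm and pharyngeal muscle members lie above 0 in both 400 Gy libraries, touch receptor, hedgehog-related and apical matrix members mostly below, with the last 2 lists lower in replicate 1 than in replicate 2.

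Epidermal secreted and membrane proteins fell in large numbers. Hedgehog-related proteins (the wrt, grd, grl and qua genes) and patched-related membrane proteins (ptr genes) act in nematodes in moulting and cuticle formation. Of 58 tested genes 23 fell (39.7%, against 5.74% of all tested genes) and none rose, with a median of -1.0. ptr-4 had 3.60 and 12.5 CPM at 400 Gy, against 32.4 and 57.2 CPM at 0 Gy, a log2 fold change of -2.48 ± 0.43 (adjusted p = 8.7e-07). wrt-10 had 6.33 and 13.2 CPM at 400 Gy, against 40.9 and 55.3 CPM at 0 Gy, a log2 fold change of -2.3 ± 0.41 (adjusted p = 2.85e-06). qua-1 had 10.9 and 50.1 CPM at 400 Gy, against 60.6 and 114 CPM at 0 Gy, a log2 fold change of -1.52 (adjusted p = 0.0019). The 2 libraries at 400 Gy differed here, and 48 of the 58 genes (82.8%, against 42.5% of all tested genes) were lower in replicate 1 than in replicate 2. In 39 of the 58 both 400 Gy values still lay below both 0 Gy values, as in 4032 of all 13906 tested genes.

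Genes of the apical matrix and of moulting followed the same pattern. Of 41 tested 18 fell (43.9%, against 5.74% of all tested genes) and 1 rose (2.44%, against 8.38%). Their median was -1.13, and qua-1 belongs to both lists. mlt-8, a gene of moulting, had 8.28 and 18.9 CPM at 400 Gy, against 61.8 and 67.3 CPM at 0 Gy, a log2 fold change of -2.24 ± 0.41 (adjusted p = 3.53e-06). mlt-11, a protease inhibitor-like protein, had 13.5 and 48.1 CPM at 400 Gy, against 122 and 171 CPM at 0 Gy, with log2 fold changes of -2.25 after correction and -0.38 before it. noah-1, of the precuticle matrix, had 15 and 43 CPM at 400 Gy, against 98.5 and 90.6 CPM at 0 Gy, a log2 fold change of -1.71 (adjusted p = 0.000414). The exception was nas-37, an astacin protease that opens the old cuticle, with 37.7 and 33.4 CPM at 400 Gy, against 10.6 and 19.3 CPM at 0 Gy.

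These lists too depended on single libraries. Without replicate 2 at 0 Gy 6 hedgehog-related and 6 apical matrix genes passed as lower, without replicate 1 at 400 Gy 11 and 7, and in the fit to 6 libraries 1 and 1. Without replicate 1 at 0 Gy 9 apical matrix genes passed. Without the length correction 12 and 10 fell. wrt-10 and mlt-8 passed in the fit to 6 libraries and without each library in turn. The 5 markers of epidermis and moulting larvae summed to 52.2 and 157.4 CPM at 400 Gy, against 307.2 and 360.5 CPM at 0 Gy, with 4 of them lower. No marker of the list was at 0 in a library, and the part that moulting larvae or worm stage had in these values was not tested.

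Cuticle collagens, the main proteins of the cuticle, split into risers and fallers. Of 139 tested genes 33 rose and 39 fell, shares of 23.7% and 28.1% against 8.38% and 5.74% over all tested genes, with a median of 0.14. col-81 had 742 and 1051 CPM at 400 Gy, against 111.7 and 131 CPM at 0 Gy, a log2 fold change of 2.88 ± 0.50 (adjusted p = 8.7e-07). col-142 had 314 and 288 CPM at 400 Gy, against 42 and 56.0 CPM at 0 Gy, a log2 fold change of 2.62 ± 0.45 (adjusted p = 6.32e-07). Among the fallers, dpy-7, a furrow collagen that shapes the body, had 5.80 and 13.6 CPM at 400 Gy, against 60.1 and 69.0 CPM at 0 Gy, a log2 fold change of -2.73 ± 0.42 (adjusted p = 2.55e-08).

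The fallers col-90 and col-41 had log2 fold changes of -2.84 and -3.46. At 400 Gy 74.8% of the 139 collagens had their higher value in replicate 2, against 42.5% of all tested genes. Without replicate 1 at 0 Gy 4 rose and 17 fell, without replicate 2 at 0 Gy 5 and 19, without replicate 1 at 400 Gy 33 and 17, without replicate 2 at 400 Gy 15 and 55, and in the fit to 6 libraries 7 and 8. col-81, col-142, col-90, col-41 and dpy-7 passed in all of these fits.

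Several groups of defence and digestive genes held more falls than rises. Of 9 tested lysozymes, enzymes that break bacterial cell walls, 4 fell (44.4%, against 5.74% of all tested genes) and none rose. lys-4 had 79 and 165 CPM at 400 Gy, against 548 and 663 CPM at 0 Gy, a log2 fold change of -2.31 ± 0.48 (adjusted p = 4.7e-05). lys-5 had 2.00 and 2.38 CPM at 400 Gy, against 10.9 and 9.74 CPM at 0 Gy, a log2 fold change of -2.23 ± 0.50 (adjusted p = 0.000205). Both passed with 6 libraries and without each library in turn. Of 37 antimicrobial peptides and saposins 3 rose (8.11%, near the 8.38% of all tested genes) and 7 fell (18.9%, against 5.74%). Of 36 lysosomal and digestive hydrolases 4 fell (11.1%) and none rose. Without replicate 2 at 0 Gy 3 peptide genes and 2 hydrolases fell, and without replicate 1 at 0 Gy 1 hydrolase did. asp-13, an aspartyl protease, had 25.9 and 14 CPM at 400 Gy, against 83.5 and 111.96 CPM at 0 Gy, a log2 fold change of -2.29 ± 0.41 (adjusted p = 2.21e-06).

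C-type lectins, a large family of secreted sugar-binding proteins, moved both ways. Of 122 tested 20 rose (16.4%) and 14 fell (11.5%), against 8.38% and 5.74% of all tested genes, with a median of 0.11. clec-265 had 213 and 248 CPM at 400 Gy, against 36.8 and 39.4 CPM at 0 Gy, a log2 fold change of 2.60 ± 0.43 (adjusted p = 3.96e-07). clec-58 had 400 and 242 CPM at 400 Gy, against 50 and 55.7 CPM at 0 Gy, a log2 fold change of 2.60 ± 0.45 (adjusted p = 8.46e-07). clec-97 had 19.7 and 16.3 CPM at 400 Gy, against 54.9 and 83.8 CPM at 0 Gy, a log2 fold change of -1.95 ± 0.40 (adjusted p = 5.44e-05). In the fit to 6 libraries 4 lectins were called higher and 3 lower, without replicate 1 at 0 Gy 7 and 6, without replicate 2 at 0 Gy 7 and 4, and without replicate 1 at 400 Gy 18 and 8.

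Of 51 cytochrome P450 genes, oxidases of foreign compounds and lipids, 8 fell (15.7%, against 5.74% of all tested genes) and 2 rose (3.92%, against 8.38%). cyp-33A1 had 12 and 13.9 CPM at 400 Gy, against 74.9 and 109 CPM at 0 Gy, a log2 fold change of -2.83 ± 0.42 (adjusted p = 7.62e-09). Of the 51, 2 fell in the fit to 6 libraries, 3 without replicate 2 at 0 Gy and 5 without replicate 1 at 400 Gy. ugt-38, a UDP-glucuronosyltransferase, had 103 and 90.2 CPM at 400 Gy, against 11.2 and 27 CPM at 0 Gy, a log2 fold change of 2.33 ± 0.41 (adjusted p = 1.52e-06, lost without replicate 1 at 0 Gy). ftn-1, an intestinal ferritin that stores iron, had 1.83 and 12 CPM at 400 Gy, against 41.6 and 73.6 CPM at 0 Gy, a log2 fold change of -3.03 ± 0.43 (adjusted p = 1.02e-09). Its 400 Gy libraries lay far apart, and it did not pass with 6 libraries (adjusted p = 0.118) or in the DESeq2 Wald test.

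The Skp1-related genes skr-7 to skr-14 encode adaptors of ubiquitin ligases. Of these, 7 were tested and all 7 fell, with a median of -1.58 and percentiles of 1.6 to 9.2. They were taken out of the list of 30 tested Skp1 and cullin genes with results of these data known. In that list 7 genes fell, all of them in this subset (23.3% of the 30, against 5.74% of all tested genes), and none rose. skr-9 had 4.58 and 3.38 CPM at 400 Gy, against 15.2 and 15.3 CPM at 0 Gy, a log2 fold change of -1.94 ± 0.46 (adjusted p = 0.000583). Several of them are close copies of each other, so single members are uncertain. Of all 30, 1 fell without replicate 2 at 0 Gy, 3 without replicate 1 at 0 Gy, 2 without replicate 2 at 400 Gy and 1 in the fit to 6 libraries. Of 170 F-box genes of the fbxa, fbxb and fbxc families 3 rose (1.76%) and 16 fell (9.41%), against 8.38% and 5.74% of all tested genes. None of the 170 fell in the fit to 6 libraries, and fewer fell with any single library left out.

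Calls of yolk protein genes rested on the length correction. vit-3, vit-4 and vit-5 fell with the correction, vit-5 by 2.00 ± 0.59 on the log2 scale (adjusted p = 0.00708), and none of the 6 passed without it, with 6 libraries, or with replicate 2 of either dose left out. The median of the 6 was -0.95 with the correction and 0.34 without it. The vit genes share much sequence, so single members are uncertain here too.

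Many housekeeping groups had no called member in the length-corrected edgeR test, which called 14.1% of all tested genes. These were 78 cytosolic ribosomal proteins, 66 mitochondrial ribosomal proteins, 32 proteasome subunits, 28 autophagy genes, 19 genes of stress in the endoplasmic reticulum and 23 engulfment genes. DESeq2 called none of them either, and at an unadjusted p under 0.05 in edgeR 2 autophagy genes were lower and none of the other lists had a member. With no length correction 4 engulfment and 3 autophagy genes rose and 4 mitochondrial ribosomal genes fell. With the replicate number as a block 2 cytosolic ribosomal, 3 proteasome, 3 engulfment and 1 endoplasmic reticulum gene rose. In that fit 1 cytosolic ribosomal, 3 mitochondrial ribosomal, 1 autophagy and 1 endoplasmic reticulum gene fell. Of 42 nuclear genes of oxidative phosphorylation 1 rose (2.38%, against 8.38% of all tested genes). This was cyc-2.2, a cytochrome c, with 6.94 and 15.5 CPM at 400 Gy against 2.27 and 1.60 CPM at 0 Gy. Of 56 heat shock and chaperone genes 1 rose (1.79%, against 8.38%). This was the small heat shock protein hsp-12.2, with 16.23 and 14 CPM at 400 Gy against 5.99 and 3.66 CPM at 0 Gy. Of 39 glutathione S-transferases 1 rose (2.56%) and 1 fell (2.56%), against 8.38% and 5.74% of all tested genes. The rise was that of gst-38, with 752 and 454 CPM at 400 Gy against 131 and 206 CPM at 0 Gy. Neither hsp-12.2 nor gst-38 passed in the fit to 6 libraries or without either 0 Gy replicate, hsp-12.2 was also lost without the length correction, and gst-38 without replicate 1 at 400 Gy. At this depth and with 2 libraries per dose, smaller changes of these genes were not detectable.

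The calls were spread unevenly over chromosomes and expression levels. On the X chromosome 76 of 1915 tested genes (3.97%) rose and 157 (8.2%) fell, with a median log2 fold change of -0.22. On chromosome IV 297 of 2395 genes (12.4%) rose and 148 (6.18%) fell. Chromosomes I, II, III and V had shares of 7.03% to 10.1% higher and 3.65% to 6.52% lower. Without the length correction the X chromosome had 7.05% higher and 7.42% lower, still the largest share of falls and the smallest of rises among the 6. Sperm genes of this species are known to be scarce on the X chromosome, and the part of the sperm genes in these shares was not tested.

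By level, 16% of genes rose in the lowest of 5 classes of mean CPM and 2.59% in the highest, and 7.94% and 1.69% fell. Protein-coding genes had 8.25% higher and 6.07% lower calls. Among genes annotated as ncRNA 31 of 196 rose (15.8%) and 9 fell, and among snoRNA genes 12 of 64 rose (18.8%) and 2 fell. Among antisense RNA genes 9 of 51 rose (17.6%) and none fell. The median levels of these groups at 0 Gy were low, 2.18, 3.27 and 3.21 CPM, against 18.9 CPM for protein-coding genes. Their shares of rises were near the 16% and 14.9% of all genes in the 2 lowest classes of level. Antisense reads cannot be told apart from those of the genes they overlap in these libraries.

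**Figure D5:**
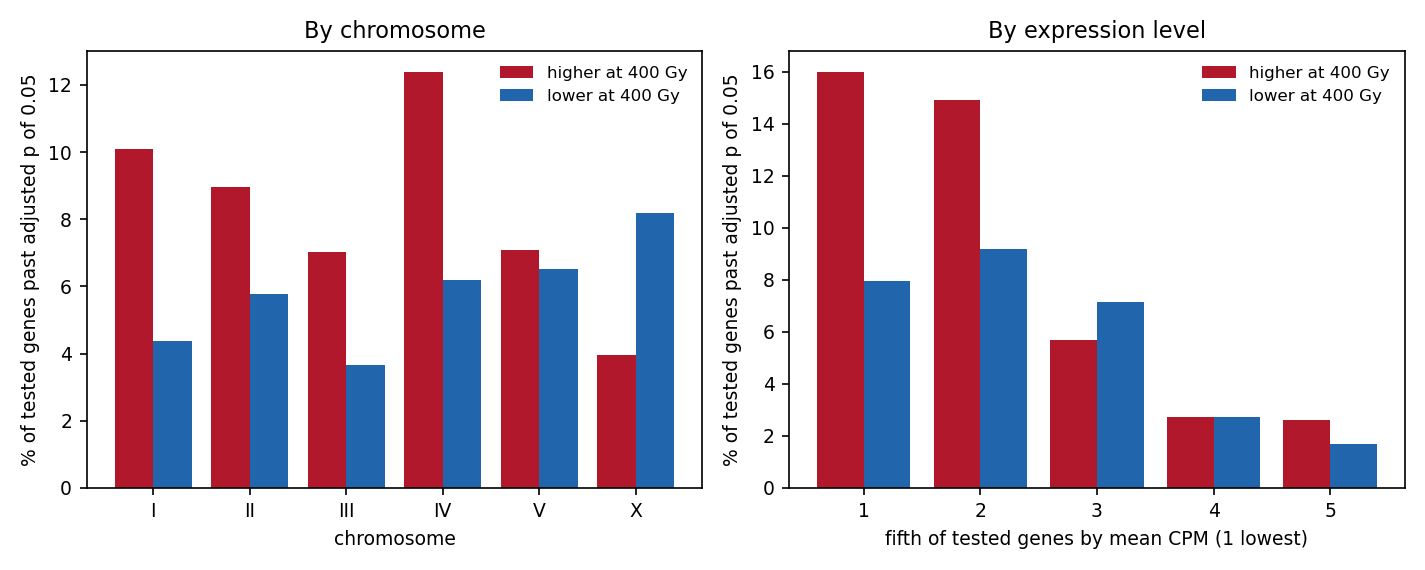
Percent of tested genes called higher (left bar of each pair) and lower (right bar) at 400 Gy, by chromosome and by 5 classes of mean length-corrected CPM. The X chromosome has 3.97% higher and 8.2% lower, and the shares higher drop to 2.59% in the highest class.

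Set directly against the 200 Gy libraries in the length-corrected fit to 6 libraries, 298 of 14417 genes (2.07%) were higher at 400 Gy than at 200 Gy and 419 (2.91%) were lower, in edgeR's quasi-likelihood test. Among the 15 largest rises 7 were also higher than at 200 Gy, and among the 15 largest falls ins-19 and dct-8 were also lower. E03H12.5 was higher at 400 Gy than at 200 Gy by a log2 fold change of 3.65 ± 0.46 (adjusted p = 0.0138), and pqn-31 by 3.21 ± 0.65 (adjusted p = 0.0297). For alg-3 the difference between 400 and 200 Gy was 0.93 (adjusted p = 0.287), for clec-4 it was -0.03 (adjusted p = 0.974) and for fipr-2 1.16 (adjusted p = 0.18), all on the log2 scale. None of the 15 touch receptor, 41 apical matrix and 42 early embryo genes passed in edgeR between 400 and 200 Gy, and mec-17 had -1.27 (adjusted p = 0.0664). At an unadjusted p under 0.05, 2, 6 and 7 of them did in edgeR, and DESeq2 called 1 touch receptor and 1 early embryo gene lower at 400 Gy and no apical matrix gene. These direct differences rest on both 400 Gy libraries, since 7 genes in all were called without replicate 1 at 400 Gy and 1 without replicate 2.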

How the data were processed

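Read counts per gene from 4 libraries of whole C. elegans, 2 at 400 Gy and 2 at 0 Gy, were analysed, with 2 libraries at 200 Gy for a direct contrast. The deposited table gives raw read counts and RPKM values per gene and library. Each RPKM value deposited by the authors equals the count divided by the table's Length and the library's total, so the tests used the counts. The submitters' processing notes name the WBcel235 build, TopHat2 2.0.13 and bcl2fastq. The sources used here give no counter, annotation release or strand setting. Of the tested genes matched by name, 97.7% lay inside the gene of that name in a WBcel235 annotation, on the same strand. Lengths are called coding lengths because 91.7% of them divide by 3.

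Genes were kept by filterByExpr and scaled by TMM in edgeR 4.0.16 (R 4.3.3). A loess trend (span 0.3) of each library's log2 deviation on log2 length was removed by offsets. Doses were compared with the quasi-likelihood test on the 4 libraries alone (2 residual degrees of freedom), Benjamini-Hochberg adjustment over all tested genes and a threshold of 0.05. The contrast of 400 with 200 Gy used all 6 libraries (3 residual degrees of freedom). The method was tested on simulated data.

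The comparison, its members, 70 gene lists and the named genes were chosen with earlier results of these data known. Named genes were the 15 largest rises and falls of at least 5 CPM on average and non-overlapping libraries, up to 4 called members of each list and direction, and genes of prior interest. Further members of described lists were named after their values were seen. Alternatives were no correction, medians in 20 length classes, all 6 libraries, DESeq2 1.42.0, other filters and thresholds, no ribosomal RNA, the replicate block and each library left out. The robust fit was added after seeing the data. Precision is limited by 2 libraries per dose.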

Additional observations from a re-analysis of the deposited data

Results flagged for a closer look

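For 22 of the 191 named genes the value at 400 Gy differed from that at 200 Gy in the test of that difference (edgeR quasi-likelihood, length-corrected, 6 libraries, adjusted p of 0.0122 to 0.0496, 3 residual degrees of freedom). All values here are log2 fold changes of 400 Gy over 200 Gy. Higher at 400 Gy were ZK1005.2 (4.25), E03H12.5 (3.65), pqn-31 (3.21), Y38E10A.17 (2.59), unc-22 (2.5), ttr-14 (2.46), acs-18 (2.44), Y113G7C.1 (2.35), ugt-38 (2.21), T27A3.4 (2.12) and F56A11.6 (1.86). Lower at 400 Gy were unc-44 (-3.55), lys-5 (-2.68), dct-8 (-2.56), ins-19 (-2.52), clec-97 (-2.21), lys-4 (-1.99), gap-2 (-1.95), cnc-8 (-1.80), dod-23 (-1.76), fbxc-32 (-1.52) and nuc-1 (-1.49). E03H12.5, pqn-31, unc-22 and ttr-14 differed from 0 Gy at 400 Gy and had values of -0.53, -0.081, -0.54 and -0.45 for 200 Gy over 0 Gy. unc-44 and unc-22 are listed with 21783 and 22026 bases, near the long end of the length trend. With 2 libraries per dose, no group was large enough to look for single outlying libraries.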

How the results depend on the processing

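The length trend was not removed by any filter, and its Spearman correlation was 0.198 with no filter, 0.561 at a mean of at least 5 CPM and 0.304 to 0.449 with a library left out. Against 0 Gy, calls fell to 265 (178 higher, 87 lower) with all 6 libraries, to 802 (461, 341) at a mean of at least 5 CPM, and ranged over 493 to 1789 (339 to 1309 higher, 154 to 823 lower) with a library left out. Lower calls were 438 with length classes, 505 with the DESeq2 Wald test and 473 at an adjusted p under 0.01. With the replicate number as a block, calls were 3289 (1821 higher, 1468 lower), and for 400 over 200 Gy 4654. Across genes, the difference of replicate 1 from 2 at 400 Gy correlated at 0.429 with that at 0 Gy, but the labels do not say that the 2 numbers pair libraries. For 400 over 200 Gy, where 717 genes were called, the count was 4495 without the length correction, 325 with the 4 libraries compared alone, 1563 with DESeq2, 2198 with no filter and 1 to 2110 with a library left out. It was 0 at an adjusted p under 0.01 in edgeR, where 3709 genes had an unadjusted p under 0.05, and 759 with DESeq2 at that threshold. Other alternatives kept these counts within a factor of 1.5, and the causes of the differences were not tested.

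Of 179 named genes with a call, 139 passed without the length correction, 161 with DESeq2, 67 with 6 libraries, and 72 with every library left out in turn. Signs turned without the correction for lrp-1 (0.89), unc-44 (1.43), gap-2 (0.019), unc-13 (0.18), atl-1 (1.14), vit-1 (1.3), vit-2 (0.77) and vit-6 (0.92), and with length classes for unc-44 (0.18) and age-1 (-0.29), all log2 fold changes. With a library left out, uncalled genes ranged over -0.24 to 0.48 (rad-51), -0.37 to 0.70 (age-1), -2.32 to 0.80 (vit-1), -0.87 to 0.00035 (vit-2) and -0.88 to 0.099 (vit-6).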
